A study of Mus musculus with 2 samples.

Results

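Among single cells sorted from mouse thymus, 294 cells carried transcripts of the lectin genes Cd209a, Mgl2 or Cd209d and no transcript of the neighbouring lectin gene Cd209e. The working name for them was Cd209a Mgl2 dendritic cells without Cd209e. The thymus of adult mice (C57BL/6 in the sample labels, C57BL/6J in the design text) was digested with enzymes, cells with surface CD64 (the high-affinity IgG receptor encoded by Fcgr1) were collected by flow cytometry, and single-cell libraries were made on the 10x Chromium 3′ platform and read on an Illumina NovaSeq instrument. That single group has 2 samples, labelled as macrophages and made in 2021 and 2024, for which the labels name the strain and the word adult but no exact age, number of animals or treatment. Gene names accompanied the counts of the 2021 library, so the values below come from that 1 library. There is no replicate, no difference between cell groups was tested, and the printed 95% intervals cover counting error only.

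The 2021 library held 3214 barcodes, 8534578 unique molecular identifiers (UMIs, each standing for 1 captured transcript) and a median of 2157.5 UMIs and 886 genes per barcode; the 2024 library held 2815 barcodes with a median of 5312 UMIs. Of the 2021 barcodes, 3188 were kept (at least 500 UMIs and 300 genes, at most 10% mitochondrial UMIs) and 26 were not. A kept cell was a member if Cd209a, Mgl2 and Cd209d together gave at least 2 UMIs and Cd209e gave 0. It also had to show fewer than 3 UMIs of Ccr7, Fscn1 and Ccl22 (genes of mature dendritic cells), fewer than 3 of C1qa, C1qb and C1qc (complement C1q), fewer than 5 of Top2a, Mki67, Birc5, Ube2c, Pclaf and Hist1h1b (cell division) and fewer than 2 of Siglech (a plasmacytoid dendritic cell receptor). The members were 9.22% of kept cells (exact binomial interval 8.24 to 10.3%). They held 1032960 UMIs with a median of 3367 per cell (lowest 576, highest 10183) and 1197.5 genes, against a median of 2029.5 UMIs in the other 2894 kept cells.

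Conventional dendritic cells take up antigen, load peptides on MHC class II molecules and show them to T cells. In the thymus they present self and blood-borne antigens to developing thymocytes, and the type 2 branch, marked by Sirpa, Irf4 and lectins such as CD209a and the galactose-type lectins MGL2 and CLEC10A, lies partly at the border between cortex and medulla. CD209a, CD209d and CD209e are C-type lectins of the mouse DC-SIGN family, receptors for sugars on pathogens and cells, and Mgl2 encodes a macrophage galactose-type lectin, also called CD301b. CD64 is often used to tell macrophages and monocyte-derived cells from conventional dendritic cells.

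The promoters of the 4 lectin genes on which the rule turns are shown first, as a description of the genes. The overlap of their transcripts, which bears on how their counts can be told apart, follows. Cd209a (ENSMUSG00000031494, GRCm38 chromosome 8, 3743397 to 3748984), Cd209e (ENSMUSG00000040197, 3847965 to 3854309) and Cd209d (ENSMUSG00000031495, 3871824 to 3878555) lie side by side on the minus strand, and Mgl2 (ENSMUSG00000040950, chromosome 11, 70130329 to 70137550) lies on the plus strand. Each printed stretch runs 5′ to 3′ on the gene's strand from 250 bases before to 50 bases after the RefSeq start in GRCm38.p6, and covers chr8:3748935-3749234 (minus), chr8:3854237-3854536 (minus), chr8:3878450-3878749 (minus) and chr11:70130107-70130406 (plus) in the order printed. The capitals mark a match to GGAA, any 2 bases and GAAA, the composite letters of an ETS site beside an IRF site, searched on both strands; here it was read on the reverse strand.
Cd209a promoter: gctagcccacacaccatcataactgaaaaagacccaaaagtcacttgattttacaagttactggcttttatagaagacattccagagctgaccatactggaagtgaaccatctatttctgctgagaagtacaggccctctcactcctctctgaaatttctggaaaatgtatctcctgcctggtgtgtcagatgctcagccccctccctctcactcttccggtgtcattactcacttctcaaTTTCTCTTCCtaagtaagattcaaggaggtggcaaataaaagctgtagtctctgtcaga
Cd209e promoter: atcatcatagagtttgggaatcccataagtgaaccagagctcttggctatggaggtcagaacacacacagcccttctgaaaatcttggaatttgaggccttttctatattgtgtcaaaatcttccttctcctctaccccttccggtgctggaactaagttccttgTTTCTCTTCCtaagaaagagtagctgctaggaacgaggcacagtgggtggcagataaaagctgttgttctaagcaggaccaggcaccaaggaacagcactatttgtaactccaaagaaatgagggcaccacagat
Cd209d promoter: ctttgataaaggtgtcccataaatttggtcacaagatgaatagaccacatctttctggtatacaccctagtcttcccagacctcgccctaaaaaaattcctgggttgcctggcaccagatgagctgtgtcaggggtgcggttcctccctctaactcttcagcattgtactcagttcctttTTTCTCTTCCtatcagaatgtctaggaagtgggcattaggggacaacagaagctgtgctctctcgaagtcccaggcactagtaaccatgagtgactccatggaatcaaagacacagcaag
Mgl2 promoter: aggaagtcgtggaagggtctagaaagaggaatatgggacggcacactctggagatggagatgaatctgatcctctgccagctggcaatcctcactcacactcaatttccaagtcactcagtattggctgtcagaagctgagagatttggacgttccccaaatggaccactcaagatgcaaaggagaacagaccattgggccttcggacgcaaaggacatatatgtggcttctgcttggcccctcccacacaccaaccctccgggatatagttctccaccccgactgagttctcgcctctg
The Cd209a, Cd209d and Cd209e stretches each held 1 match, in the same 10 letters, whose first printed base lay at -9, -70 and -85 from the start, and the Mgl2 stretch held 0. Of 32851 RefSeq promoters of this length, 892 (2.72%) held the motif, and it was in 0 of the 16 promoters found for the 20 leading genes described further on. A match of letters is a description of the sequence and not a measured binding site. The transcripts of Cd209a, Cd209d and Cd209e shared no stretch of 50 bases, whereas 242 of the 1799 such stretches of Mgl2 (13.5%) also occur in its neighbour Clec10a. Whole transcripts were compared. Whether the shared stretches lie in the 3′ ends that were read, and so affect the counts of those 2 lectins, was not tested.

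The members were chosen by these counts, which are given as a description. Among the members, Cd209a gave 996 UMIs in 238 cells (81.0%), Mgl2 gave 587 in 188 (63.9%) and Cd209d gave 337 in 98 (33.3%). Cd209a without Mgl2 was found in 103 members (35.0%), Mgl2 without Cd209a in 53 (18.0%), both in 135 (45.9%), and 3 passed on Cd209d alone. The sum of the 3 genes ranged from 2 to 32 with a median of 5, and 49 members stood at the threshold of 2. Just outside it, 104 cells met every other condition with a sum of 1 (median 2851.5 UMIs). The threshold divided cells with overlapping profiles: Cd74, the invariant chain of MHC class II, stood at 21380.1 CPM (the summed counts of a cell group, scaled to 1000000 UMIs) in members with a sum of 2 and at 19654 CPM in the cells just outside, and Flt3, the receptor for the growth factor of dendritic cells, at 84.5 and 70.00 CPM.

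Of 524 kept cells with at least 2 UMIs of the 3 lectin genes, 230 were left out by another condition. A Cd209e UMI was found in 150 of them, 3 or more C1q UMIs in 56, 5 or more division UMIs in 38, 3 or more UMIs of the mature genes in 11 and 2 or more of Siglech in 9. A Cd209e count of 0 depends on depth: 52 of the 138 Cd209e cells compared below held a single Cd209e UMI. Every cell was also first thinned at random to 2000 UMIs (an alternative chosen after the data were seen). The rule then found 266 members among 1749 cells deep enough, against 279 by the full counts, and 229 were members both ways. Thinned to 1000 UMIs, it found 197 among 2605 cells, against 292 by the full counts, and only 139 were members both ways.

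Of the markers that came with the name, Epcam, Dab2 and Aqp3 were not used by the rule, and none of them marked most members. Epcam, an adhesion molecule of epithelia and Langerhans cells, stood at 133 CPM (95% interval 111 to 157) from 137 UMIs in 55 members (18.7%), against 30.1 CPM in the other kept cells. Dab2, an endocytic adaptor, stood at 65.8 CPM (51.1 to 83.5) in 53 members, against 19.9 CPM. Aqp3, a water and glycerol channel, stood at 30.01 CPM (20.4 to 42.6) in 27 members, against 13.5 CPM. Epcam and Dab2 passed 2-fold against the pooled other kept cells with 10 CPM added to each side, and Aqp3 did not. The Cd209e cells had 132 CPM of Dab2, 100.03 of Aqp3 and 123 of Epcam, so Dab2 and Aqp3 were higher outside the members than in them.

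The word dendritic was set beside genes listed for that cell type and its neighbours. Cd74 was counted in all 294 members. It does not by itself name the cell type: 250 of the 345 C1q macrophages held 3 or more UMIs of the MHC class II genes. Flt3 was counted in 76 members and Zbtb46, the transcription factor of conventional dendritic cells, in 40 members. Mertk, Vsig4, Folr2 and Spic of the macrophage list, Xcr1 of type 1 dendritic cells, Cd207 (langerin, the marker of Langerhans cells) and all 6 listed basophil and mast cell genes had 0 UMIs in the members. Other genes of those lists were present: 12 of 16 macrophage genes gave 508 UMIs and 10 of 12 type 1 genes gave 577. Except for Folr2 and Spic, the genes at 0 were also at 0 in the Cd209e cells, so these zeros do not single out the members. Fcgr1, which encodes the CD64 used for the sort, gave 15 UMIs in 13 members, or 14.5 CPM (8.13 to 24), against 108 CPM in C1q macrophages and 111 CPM in Ly6c2 monocytes. At equal depth its share of positive members was 2.87% (1.25 to 5.57%; 4.42% unthinned), a range that overlaps the 0.862% (0.105 to 3.08%) of the neutrophil gate. The transcript of the receptor used for sorting was thus low in the members; its surface protein was not measured here.

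The comparison groups were gated by counts in the same library. Cd209e cells (138, median 3719 UMIs) held a Cd209e UMI and met the members' conditions on the mature, C1q, division and Siglech genes; 124 of them also had 2 or more UMIs of the 3 lectin genes, which was not required. Mature dendritic cells (122, median 2972.5) held 3 or more UMIs of Ccr7, Fscn1 and Ccl22, and C1q macrophages (345, median 2479) 3 or more C1q UMIs. The mature and C1q gates left out each other's cells and cells that failed the members' conditions on division and Siglech. Ly6c2 monocytes (262, median 2325.5) held 3 or more UMIs of Ly6c2, Chil3 and F13a1 and under 50 of S100a8 and S100a9. By a condition added after the data were seen, they held under 3 of Jchain, Mzb1, Nkg7, Cd3e and Cd3g. They also held under 2 UMIs of the 3 lectin genes and no Cd209e UMI. They met the members' conditions on the mature, C1q, division and Siglech genes, and 0 members were in this gate. Neutrophils (484, median 1913) held 50 or more UMIs of S100a8 and S100a9 and served as cells expected to lack dendritic cell genes; 3 members were also in this gate.

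A single member stood apart. It held 8271 UMIs, of which 161 were Elane, 189 Prtn3, 72 Mpo and 41 Ctsg (primary granule proteases and peroxidase of developing neutrophils), with 466 of S100a8 and 294 of S100a9, and it had entered with 2 Mgl2 UMIs and 1 Cd74 UMI. It supplied 466 of the 693 S100a8 UMIs of all members. Genes listed for other lineages were also counted in some members. Of the members, 13 held 3 or more UMIs of the 12 T lineage genes (at most 26), and 2 held as many of the B lineage and plasma cell genes. The counts were 33 for the 10 neutrophil genes, 67 for the natural killer and innate lymphoid genes and 66 for the macrophage genes. They were 94 for the non-classical and 203 for the classical monocyte genes. In the 138 Cd209e cells these counts were, in the same order, 27, 0, 25, 50, 25, 49 and 92. The natural killer list holds Klrd1 and the non-classical list Cd9, both described further on in the members. Whether any of these counts came from cells of another lineage was not tested. The doublet caller marked 3 of 3188 cells, so doublets were not removed, and 18 members (6.12%) against 6.36% of other cells were among the highest doublet scores.

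Against all other kept cells, the members stood out by MHC class II and antigen-loading genes, by a small group of lectins, by the chemokine gene Ccl17 and by genes of epithelial adhesion, while genes of neutrophils, lymphocytes, monocytes and macrophages were lower. Not all of this was particular to the members. Summed MHC class II genes were 51719 CPM in the members and 66094 in the Cd209e cells, and summed epithelial adhesion genes 843 and 1042. Ccl17 and the summed other C-type lectins (962 against 576 CPM) were higher in the members than in the Cd209e cells. A gene was called higher or lower when the ratio of CPM, with 10 CPM added to each side, passed 2-fold, and genes with at least 15 UMIs in the 2 groups together were compared, leaving out the 17 genes of the rule. Of 11109 genes, 74 (0.666%) were higher and 533 (4.8%) lower, with a median log2 ratio of -0.12 over all genes compared. The number of calls below rests on these sizes and not on a test.

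**Figure D1:**
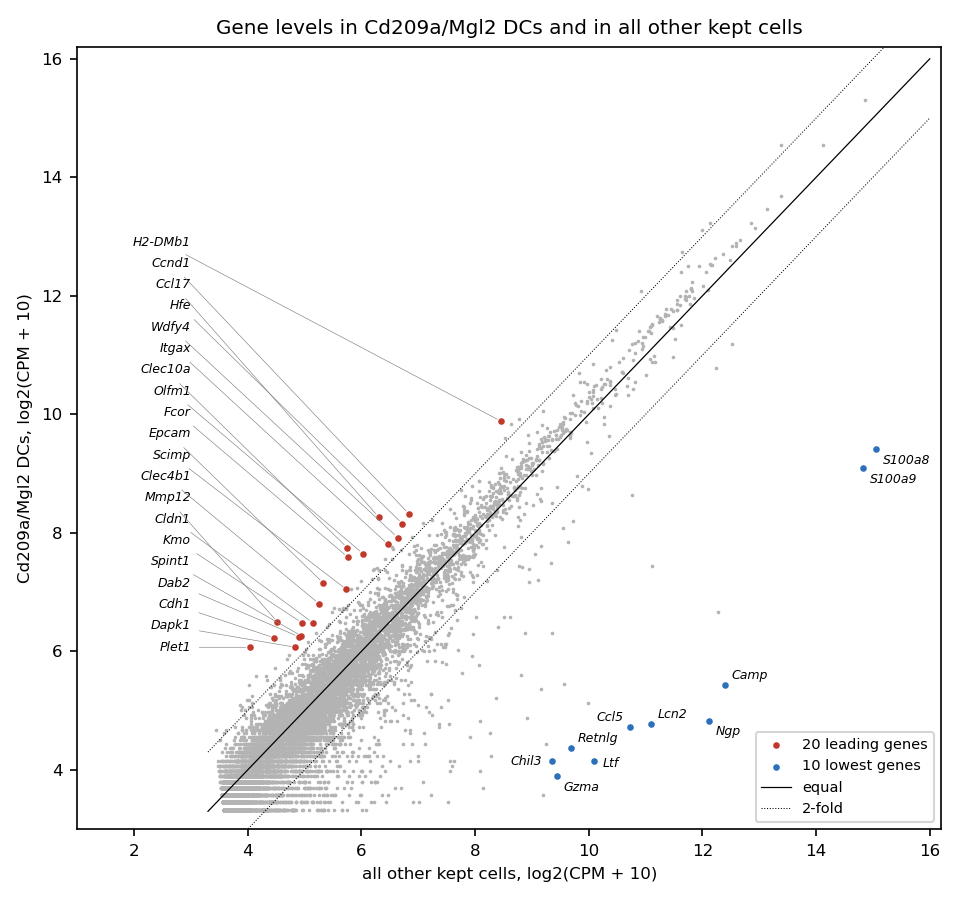
Each point is 1 gene, with its level in all other kept cells on the horizontal axis and in the 294 members on the vertical axis, both as log2(CPM + 10). The 20 leading genes (red) lie above the dotted 2-fold line, and the 10 lowest (blue), led by neutrophil granule genes, lie far below the line of equality.

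The leading gene was Plet1, a surface glycoprotein first described in placental and epithelial cells, at 57.1 CPM (59 UMIs in 17 members, up to 10 in 1 cell) against 6.41 CPM, a ratio of 8.91 (5.98 to 13.3). Mmp12, an elastase of the matrix metalloproteinase family, was 80.4 against 13 CPM, and its 83 UMIs came from 25 members with 20 in 1 of them. These 2 genes were thus carried by few cells. Clec10a, the galactose-type lectin next to Mgl2, was more widely spread: 212 UMIs in 102 members gave 205 CPM (179 to 235) against 43.8, a ratio of 4.68 (3.92 to 5.58). Ccl17, a chemokine that attracts CCR4-bearing T cells, was 298 against 68.9 CPM, a ratio of 4.32 (3.74 to 4.99), and 42 of its 308 UMIs lay in 1 member.

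Other leading genes were found in more of the members. Fcor (a corepressor of FOXO1) was counted in 116 members at 183 against 44.1 CPM, Hfe (an MHC class I-like regulator of iron) in 153 at 275 against 95.4, and Ccnd1 (cyclin D1) in 146 at 309.8 against 104. Wdfy4, needed for cross-presentation by type 1 dendritic cells, was counted in 130 at 232 against 89.5 CPM. Each of these 4 genes was thus found in 116 to 153 of the 294 members, where Plet1 was found in 17. Olfm1 (olfactomedin 1) was 191 against 55.2 CPM, Scimp (an adaptor tied to MHC class II signalling) 122 against 43.3, Kmo (kynurenine 3-monooxygenase) 79.4 against 21, and Dapk1 (a death-associated kinase) 57.1 against 18.6. Spint1, an inhibitor of epithelial serine proteases, was 66.8 against 20.7 CPM. Wdfy4 and Kmo did not pass 2-fold against the Cd209e cells.

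The 10 lowest genes were Ngp, Camp, Lcn2, Ltf, S100a8, S100a9, Retnlg and Chil3, which are granule and secreted products of neutrophils, together with Ccl5 and Gzma of cytotoxic lymphocytes. Ngp was 18.4 CPM in the members against 4429 in other kept cells, Camp 32.9 against 5381, Lcn2 17.4 against 2188, and Ltf 7.74 against 1085. S100a9 was 534 against 29144 CPM, Retnlg 10.6 against 814, and Chil3 7.74 against 646. The granule-bearing member supplied 294 of the members' 552 S100a9 UMIs. Ccl5 was 16.5 against 1683 CPM, and the granzyme gene Gzma 4.84 against 685.

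Genes of antigen presentation by MHC class II were higher in the members. Of 11 listed genes compared, 7 were higher and 1 lower, with a median log2 ratio of 1.10 beside -0.12 over all genes. Cd74 stood at 24031 CPM (23733 to 24332) against 10716, and the chains H2-Aa, H2-Ab1 and H2-Eb1 at 6811, 8854 and 9613 against 3173, 4040.5 and 4478 CPM. H2-DMa and H2-DMb1 encode the DM molecule that edits the bound peptide. H2-DMa was 962 against 426 CPM and H2-DMb1 936 (878 to 997) against 340.3, counted in 264 members. The activator of the class II genes, Ciita, was 137 against 53.8 CPM. H2-Oa and H2-Ob, the 2 chains of the DO molecule that restrains DM, did not pass 2-fold at 104 against 64.5 and 62 against 50.8 CPM. H2-Eb2 was the exception in the other direction, with 1 UMI in the members (0.968 CPM) against 15.1 CPM.

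**Figure D2:**
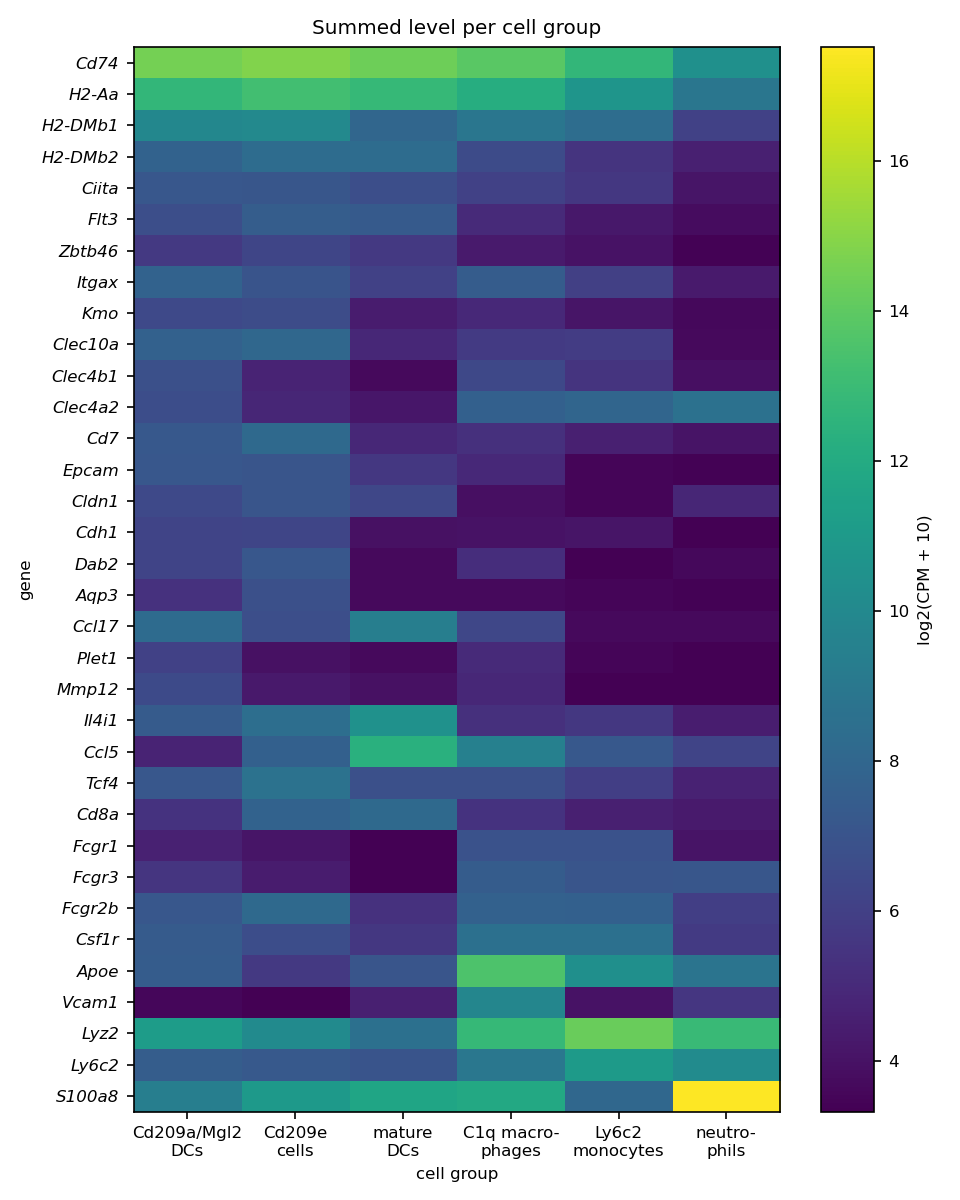
Rows are 34 genes and columns 6 cell groups, and the colour gives the level of the summed counts as log2(CPM + 10) on the scale at the right. The members (first column) share bright MHC class II rows with the Cd209e cells and the mature dendritic cells, while Apoe and Vcam1 are brighter in the C1q macrophages than in the members.

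The listed genes of MHC class I presentation, which do not include Wdfy4, did not differ in the same way. Of 9 compared, 0 were higher and 0 lower, with a median log2 ratio of -0.10. H2-K1, a class I heavy chain, was 987 against 1224 CPM and its light chain B2m 1365 against 1742. Of 14 lysosomal genes, 0 were higher and 4 lower. The cysteine protease gene Ctss, whose product trims the invariant chain, was 840.3 against 733 CPM, whereas Ctsb, Ctsd and Lgmn, other endosomal proteases, were lower at 162 against 441, 44.5 against 259 and 26.1 against 112. Cst3, the cystatin abundant in dendritic cells, was 5843 against 4615 CPM and did not pass 2-fold.

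The genes common to conventional dendritic cells were partly higher. Of 11 compared, 5 were higher and 1 lower (median log2 ratio 0.92). Flt3 was 95.8 CPM (77.9 to 117) against 41.3, Itgax (CD11c) 214 against 78.4, Kmo and Ciita were higher as given, and Bcl11a, a transcription factor of dendritic cell and B cell precursors, was 157 against 64.4. Zbtb46 at 40.7 against 16.7 and Dpp4 (CD26) at 48.4 against 21.6 CPM did not reach the fold on the scale with 10 CPM added. Cd24a was lower, 60.02 against 168 CPM, and it was 482 CPM in the neutrophil gate.

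Type 2 dendritic cell genes were less uniform. Of 12 compared, 3 were higher (Clec10a, Tnip3 and Cbfa2t3) and Itgam was lower, with a median of 0.41. Tnip3, an inhibitor of NF-kappa-B signalling, was 91 against 34.7 CPM, and the corepressor gene Cbfa2t3 234 against 109. Irf4, the transcription factor of the type 2 branch, was 94.9 against 43 and Klf4 195 against 138 CPM, both short of 2-fold. Sirpa, the classical surface marker of the branch, was 164 against 162 CPM, and Itgam (CD11b) was 34.9 against 107. Of 12 genes of the type 1 branch, Wdfy4 and Itgae were higher and 3 were lower (Xcr1, Irf8 and Ppt1); Irf8, the transcription factor of that branch, was 82.3 against 195 CPM. Of 10 plasmacytoid genes 0 were higher and 3 lower, with Tcf4, their transcription factor, at 136 against 93.1 CPM.

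Across the 27 transcription factors compared, 2 were higher (Bcl11a and Cbfa2t3) and 4 lower, Irf8, Maf and Cebpb among them. Cebpb, a factor of monocytes and neutrophils, was 219.8 against 788 CPM. Spi1, which encodes PU.1, was 546 against 419.7 CPM, Zeb2 82.3 against 135 and Id2 101 against 181, none past 2-fold. Among 8 growth factor receptors, Flt3 was higher and Csf3r, the receptor for the neutrophil growth factor, lower. Csf1r, the receptor of macrophages and monocytes, was 159 against 159 CPM, and was higher in C1q macrophages (368) and Ly6c2 monocytes (363).

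Of 17 other C-type lectin genes compared, 3 were higher (Clec10a, Clec4b1 and Cd209b) and 3 lower (Clec4d, Clec4e and Ly75), with a median log2 ratio of -0.21, near that of all genes. Clec4b1, a lectin of the DCAR group, was 102 against 28.2 CPM, a ratio of 3.61 (2.83 to 4.58), in 69 members. Cd209b (SIGN-R1) gave 16 UMIs in 9 members (15.5 CPM) against 0.802 CPM, and Cd209f and Cd209g gave 0. Clec9a, the dead-cell receptor of type 1 dendritic cells, was 7.74 CPM in the members. Of 7 Fc receptor genes, Fcgrt, the neonatal Fc receptor, was higher at 156 against 63.7 CPM and Fcgr4 lower. The inhibitory receptor gene Fcgr2b was 137 against 114, and the activating Fcgr3 34.9 against 76.2 CPM.

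Among 16 chemokine genes, Ccl17 was higher and 9 were lower, with a median of -1.28. Ccl3 and Ccl4, inflammatory chemokines of the CC family, were 23.2 against 159 and 86.2 against 356 CPM. Ccl6 was 157 against 179 and Ccl9 83.3 against 64.5, both short of 2-fold, and 42 of the 162 Ccl6 UMIs came from 1 member. Of 14 receptors for chemokines and lipids, 0 were higher and 3 lower (Cxcr4, Xcr1 and S1pr1). Ccr2, the receptor for exit of monocytes from the marrow, was 287 against 235 CPM and Cx3cr1 91 against 104. Of 13 cytokine genes, 0 were higher and Il1rn lower; Il1b was 607 against 498 CPM, and Il10, Il12a, Il12b and Il23a had 0 UMIs in the members.

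Co-stimulatory genes were close to the other cells: of 15, Slamf7 was higher (155 against 69.6 CPM) and Cd200 lower, with Cd86, a ligand of CD28, at 24.2 against 39.7 and Cd40, the receptor for help from T cells, at 58.1 against 50.8. Of 15 genes that respond to IL-4 and IL-13, Ccl17 and Clec10a were higher and Chil3 lower, with a median of -0.01, so the group as a whole did not stand apart. In 12 TGF-beta and retinoic acid genes, 12 interferon response genes and 14 immediate early genes, 0 were higher and 0 lower, and their medians were -0.32, -0.18 and 0.14. Of 12 division genes outside the rule, 0 were higher and 7 lower, and the rule itself had left out cells with transcripts of division.

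Genes of epithelial adhesion and transport were higher than in the pooled other cells, though not than in the Cd209e cells, against which 0 of 8 were higher and 1 lower (median -0.14; summed list 843 CPM in the members and 1042 in the Cd209e cells). Against all other kept cells, of 9 compared, 5 were higher (Epcam, Cdh1, Cldn1, Dab2 and Itgae) and Cd24a was lower, with a median of 1.15. Cdh1, which encodes E-cadherin, was 64.9 against 12.2 CPM, a ratio of 5.33 (3.83 to 7.39), from 67 UMIs in 45 members, and Cldn1, a claudin of tight junctions, 79.4 against 25.4 in 49. Itgae, the CD103 chain that binds E-cadherin, was 26.1 against 6.28 CPM in 19 members. Epcam and Dab2 are part of both the name and the list, so they add nothing to it beyond the values above. Of 6 Langerhans cell genes, Epcam, Cdh1 and Cldn1 were higher and Trem2 lower, with Cd207 at 0. Of the 11 genes listed for thymic epithelium, Krt5, Krt14, Psmb11, Foxn1, Aire, Cldn3, Cldn4 and Ly75 gave 0 UMIs in the members, Krt8 and Krt18 gave 1 UMI each, and Cd83, which dendritic cells also express, gave the other 132.

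Genes of the other lineages were lower. All 10 neutrophil and all 12 T lineage genes compared were lower, as were 8 of 9 B lineage, 6 of 9 natural killer and innate lymphoid, 7 of 11 classical monocyte, 5 of 9 non-classical monocyte and 7 of 14 macrophage genes, beside 4.8% of all genes. Lyz2, lysozyme of myeloid cells, was 2325 CPM against 5878, though 182 members held a UMI of it. Apoe, the lipid carrier of macrophages, was 164 against 2205 CPM, and 44 of its 169 UMIs lay in 1 member. Klrd1, the natural killer receptor CD94, went against its list at 461 against 259 CPM in 155 members, short of 2-fold.

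**Figure D3:**
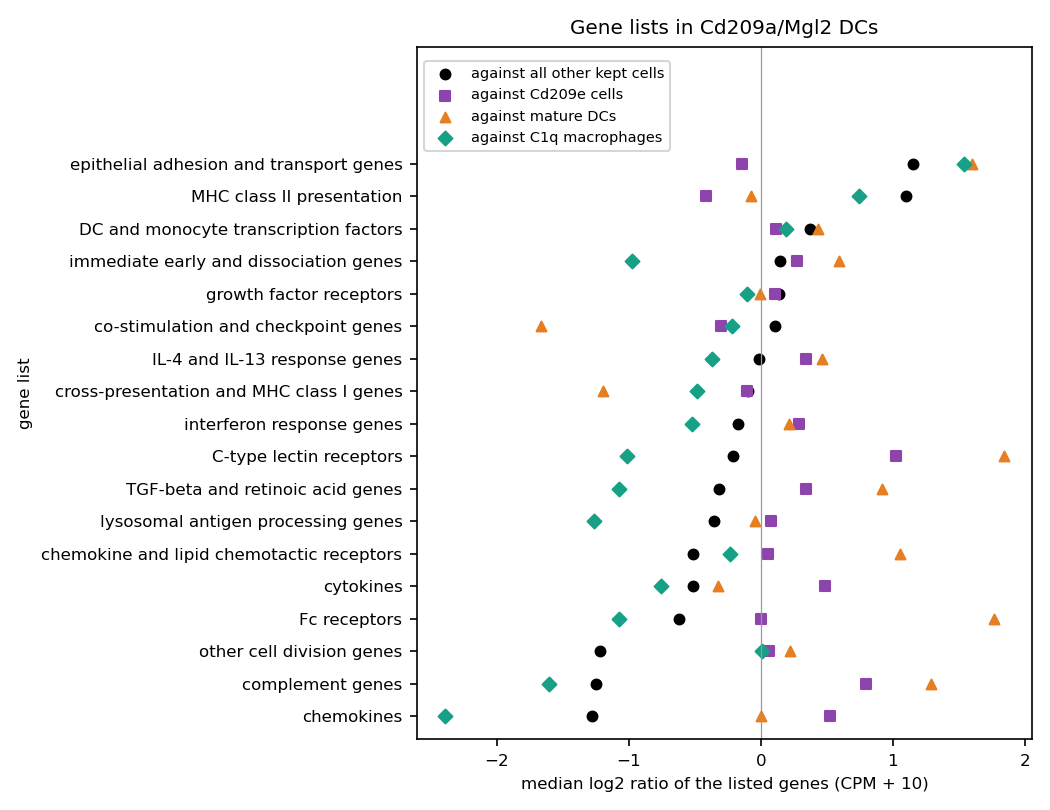
The horizontal axis gives the median log2 ratio of the compared genes of each functional list (rows) in the members, against all other kept cells (circles), Cd209e cells (squares), mature dendritic cells (triangles) and C1q macrophages (diamonds). MHC class II lies at 1.10 against all other kept cells and at -0.42 against Cd209e cells, and the chemokine list at -2.39 against C1q macrophages.

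The Cd209e cells were chosen by a Cd209e UMI, without the members' condition on the lectin sum, so the 2 groups differ in more than Cd209e. Of 6798 genes compared, 111 (1.63%) were higher in the members and 106 (1.56%) lower. The MHC class II genes were slightly lower in the members, with 1 of 10 past 2-fold (H2-Ob, 62 against 151 CPM) and a median of -0.42 beside 0.02 over all genes. H2-Aa was 6811 against 9467 CPM and Cd74 24031 against 28901. Of 11 genes common to conventional dendritic cells, 0 were higher and Adam23 was lower (45.5 against 138 CPM), with Flt3 at 95.8 against 169.9 and Zbtb46 at 40.7 against 67.9.

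Several C-type lectins were higher in the members than in the Cd209e cells. Of 12 compared, 6 were higher and 0 lower, a share well above the 1.63% of all genes, with a median of 1.02. Clec4b1 was 102 against 17 CPM, a ratio of 5.98 (3.03 to 13.4), Clec4a2, the inhibitory lectin DCIR, 91 against 18.9, and Clec4a3 152 against 49.1. Clec5a was 16.5 CPM in the members and 0 UMIs were found in the Cd209e cells. Clec10a did not differ by 2-fold, 205 against 255 CPM. Another leading gene was Ltb4r1, a receptor for leukotriene B4, at 54.2 CPM (56 UMIs in 44 members) against 1 UMI in the Cd209e cells, a ratio of 28.7 (4.95 to 1155). Neutrophils held 331 CPM of it.

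Mmp12 and Plet1 were higher in the members than in Cd209e cells as well, with ratios of 8.51 (3.51 to 26.9) and 10.1 (3.29 to 50.3). Pltp, a phospholipid transfer protein, was 51.3 against 1.89 CPM, with 16 of its 53 UMIs in 1 member. Prtn3, Elane and Mpo also ranked among the 8 leading genes, and their UMIs came mostly from the granule-bearing member (189 of 191, 161 of 161 and 72 of 72). Of 11 chemokine genes 4 were higher (Ccl6, Ccl17, Cxcl9 and Cxcl16) and 2 lower (Ccl5 and Cxcl10). Ccl17 was 298 against 96.3 CPM and Cxcl16, a membrane-bound chemokine, 133 against 37.7.

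Several genes were higher in the Cd209e cells. Tcf4 was 406 CPM there and 136 in the members, Ccr9, a thymus-homing receptor of plasmacytoid cells, 66.1 and 16.5, and Cox6a2, a cytochrome oxidase subunit used by plasmacytoid cells, 60.4 and 16.5. Those 3 were the plasmacytoid genes past 2-fold, of 8 compared. Cd8a, the CD8 alpha chain, was 208 in the Cd209e cells and 32.9 CPM in the members, a ratio of 6.31 (4.26 to 9.56). Cyp7b1, an oxysterol hydroxylase, was 73.6 and 9.68, and Gm14161 166 and 25.2. Ccl5, Ngp, Camp, Ltf and Lcn2 were also higher in the Cd209e cells, Ccl5 at 193 against 16.5 CPM (log2 ratio -2.94, but 0.02 once the cells with the highest doublet scores were removed from both). Genes of 2 other lineages moved with them: the summed T lineage list was 398 CPM in the Cd209e cells and 153 in the members, and the summed neutrophil list 4550.4 and 1323, and their part in the differences was not tested.

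At an equal depth of 2000 UMIs per cell (279 members and 131 Cd209e cells were deep enough), the share of cells with a Dab2 UMI was 10.04% (6.77 to 14.2%) in the members and 23.7% (16.7 to 31.9%) in the Cd209e cells, and that of Aqp3 6.09% (3.59 to 9.58%) and 18.3% (12.1 to 26%). Unthinned, the Dab2 shares were 18% and 33.3% and the Aqp3 shares 9.18% and 31.2%. The intervals of both genes did not overlap. Epcam did not separate the 2 groups, at 14.3% (10.4 to 19%) and 16% (10.2 to 23.5%), against 0 of the 232 neutrophils, where 3 counts of the total would be 1.29%, a limit on cells with a UMI. Tcf4 was found in 18.3% (13.9 to 23.3%) of members and 53.4% (44.5 to 62.2%) of Cd209e cells, and Cd7, an immunoglobulin-family receptor, in 18.6% and 40.5%.

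**Figure D4:**
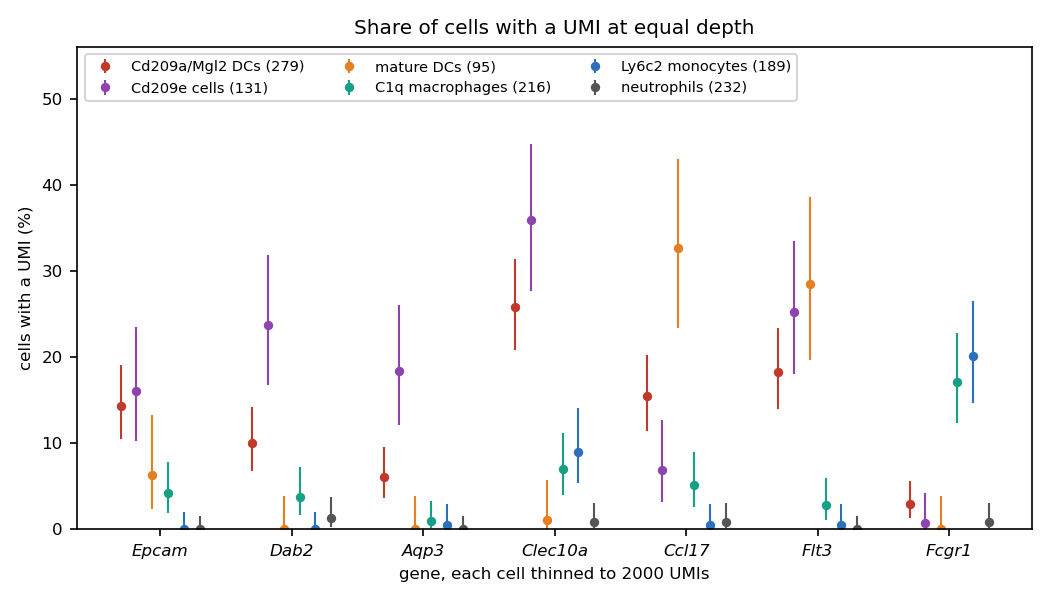
For 7 genes on the horizontal axis, points give the percentage of cells with a UMI after each cell was thinned to 2000 UMIs, bars the exact 95% interval, colours the cell group and the legend its number of cells. Dab2 and Aqp3 are higher in the Cd209e cells (23.7% and 18.3%) than in the members (10.04% and 6.09%), and Fcgr1 is low in both.

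Mature dendritic cells were the group with the most calls. Of 6484 genes compared, 902 (13.9%) were higher in the members and 525 (8.1%) lower, at a median of 0.22. The summed neutrophil list was 7512 CPM in the mature cells (2620 UMIs in 1 cell) and 1323 in the members, the T lineage list 597 and 153, and the B lineage list 188 and 55.2, and their part in the differences was not tested. Of 15 maturation genes outside the rule, 0 were higher and 14 lower in the members, and of 15 co-stimulatory genes 3 and 10. Il4i1, an amino acid oxidase, was 158 against 1423 CPM, Cd40 58.1 against 309.6, Cd83, a class II stabiliser, 128 against 691, and Cd274 (PD-L1) 32.9 against 254. The lowest genes were Ccl5 (16.5 against 5185 CPM), Apol7c (0 UMIs in the members against 948 CPM), Zmynd15 (11.6 against 862) and Cd63 (17.4 against 967, with 13 of the 18 UMIs in 1 member). Cd200, an inhibitory ligand, was 4.84 against 475 CPM, Socs2, a suppressor of cytokine signalling, 1.94 against 357, and the protease inhibitor genes Serpinb9 and Serpinb6b 2.90 against 348 and 2.90 against 345.

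In the other direction, genes of C-type lectin and Fc receptors were higher in the members, whose uptake of antigen was not measured. Of 13 C-type lectins 11 were higher and Ly75 was lower, and of 5 Fc receptors 4 were higher. Clec10a was 205 against 19.3 CPM, a ratio of 10.6 (5.06 to 26.7), Clec4b1 102 against 2.76, Scimp 122 against 5.53, and Ms4a6d, a tetraspan protein of myeloid cells, 139 against 11.1. Ear2, an eosinophil-type ribonuclease gene, was 207 against 8.29. The MHC class II list did not separate the groups (1 of 11 higher and 1 lower, median -0.07), with H2-DMb1 higher at 936 against 246 CPM and H2-Eb2 lower at 0.968 against 149. MHC class I genes were lower, 6 of 9, with B2m at 1365 against 3261 CPM. Ccl17, the leading chemokine gene of the members, was higher still in the mature cells at 655 CPM.

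Against C1q macrophages, 114 of 8065 genes (1.41%) were higher in the members and 740 (9.18%) lower. The summed neutrophil list was 8982 CPM in the macrophages and 1323 in the members (8 of 10 genes lower), and the B lineage list 445 and 55.2. Immediate early genes, which tissue dissociation can raise, summed to 12545 and 6455 CPM (7 of 14 lower in the members); the part of these lists in the differences was not tested. Of 14 macrophage genes 13 were lower: Vcam1, an adhesion molecule of resident macrophages, gave 2 UMIs in the members against 905 CPM, Apoe was 164 against 11916 and Slc40a1, the iron exporter, 0.968 against 299. Ccl12, Apoc1 and Slpi, a chemokine, an apolipoprotein and a secreted protease inhibitor, were 0.968 against 438, 17.4 against 909 and 8.71 against 577 CPM. Apoe was thus 72.8-fold lower in the members (62.6 to 85.3). Of 16 chemokine genes 12 were lower and Ccl17 was higher, and 8 of 14 lysosomal genes were lower.

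Higher than in the macrophages were 8 of 11 genes common to conventional dendritic cells and 7 of 8 epithelial adhesion genes, far above the 1.41% of all genes. Flt3 was 95.8 against 22.4 CPM, Zbtb46 40.7 against 10.2, Bcl11a 157 against 29.5 and Irf4 94.9 against 34.6. Cldn1 was 79.4 against 5.09, a ratio of 15.6 (6.42 to 49.3), Cdh1 64.9 against 6.11 and Epcam 133 against 21.4 CPM. Tnni2, a troponin gene, was 202 against 35.6, Lmo1, a LIM-domain factor, 95.8 against 16.3, and Fcor 183 against 32.6. MHC class II genes were closer to the macrophages, with 3 of 10 past 2-fold (H2-DMb2, H2-Oa and Ciita).

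Against Ly6c2 monocytes, 285 of 7037 genes (4.05%) were higher in the members and 382 (5.43%) lower, and with the 284 cells of the monocyte gate before the added condition 278 of 7130 (3.9%) were higher and 347 (4.87%) lower. All 10 MHC class II genes compared, all 11 genes common to conventional dendritic cells and all 8 epithelial adhesion genes were higher. The monocyte gate had left out cells that met the members' lectin condition and cells of the mature and C1q gates. The part of these exclusions in the contrast was not tested. Leaving out Ly6c2, Chil3 and F13a1, which chose the monocytes, 7 of 8 classical monocyte genes were lower, as were 9 of 11 chemokine genes. Ccl17 was 298 against 3.01 CPM, Klrd1 461 against 16.6, Wdfy4 232 against 15.1 and Hmgn1, a nucleosome-binding protein, 202 against 16.6. Lower were Hp (haptoglobin) at 27.1 against 529.9, Mgst1 at 7.74 against 200.2, Cebpb at 219.8 against 2119.7 and C3 at 26.1 against 325 CPM. The added condition on the monocytes had left out cells with 3 or more UMIs of a set that holds Nkg7, and the summed natural killer list was 22.6 CPM in them and 509 in the members. Members also held monocyte transcripts, with Ly6c2 in 55 cells and Ccr2 at 287 CPM against 724.

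Within the members, the 55 cells with an Epcam UMI and the 239 without differed in a group of linked genes. Of 5583 genes compared, 143 (2.56%) were higher in the cells with Epcam and 321 (5.75%) lower, and the median depths were 3938 and 3219 UMIs. Plet1 was 216 against 14.7 CPM (47 of its 59 UMIs), a ratio of 14.7 (7.66 to 30.4), Mmp12 262 against 31.9, a ratio of 8.20 (5.07 to 13.6), and Ccl17 803 against 163, a ratio of 4.92 (3.91 to 6.22). Thus Plet1, Mmp12 and Ccl17, leading genes of the members as a whole, were concentrated in the Epcam cells. Of 7 other epithelial adhesion genes 4 were higher and 0 lower: Cldn1 was 229.5 against 39.3, Itgae 87.2 against 9.81, Cdh1 119 against 50.3 and the tetraspanin gene Cd9 757 against 283 CPM. Dab2 and Aqp3 did not pass 2-fold, at 96.4 against 57.7 and 50.5 against 24.5.

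Other genes higher in the Epcam cells were Itgax (386 against 168 CPM), Irf4 (174 against 73.6), Id2 (207 against 72.4), Ear2 (519 against 124), and, among 10 MHC class II genes, H2-DMb2 (353 against 171) and H2-Oa (188 against 81). Interferon response genes followed: 5 of 12 were higher and 0 lower, with Isg15, a ubiquitin-like protein, at 785 against 315 CPM and Usp18, which removes it, at 129 against 45.4. Flt3 and Cd74 did not pass 2-fold, at 119 against 89.6 and 26365 against 23407 CPM.

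Monocyte genes were lower in the Epcam cells. Lyz2 was 147 against 2908 CPM, 19.8-fold lower (14 to 29), Ly6c2 23 against 209, and Fn1, fibronectin, gave 0 UMIs against 68.7 CPM. Of 8 classical monocyte genes 5 were lower and 0 higher, and of 10 chemokine genes 7 were lower, with Ccl6 at 13.8 against 195 CPM. Of 12 C-type lectins 3 were higher (Clec4n, Clec5a and Cd72) and 3 lower (Clec10a, Clec4a2 and Clec4a3), and of 12 type 2 dendritic cell genes 2 were higher (Irf4 and Ltb) and 4 lower (Clec10a, Itgam, Clec4a2 and Cd7). Clec10a was 41.3 against 249 and Clec4a2 23 against 109. Cd7 was 13.8 against 173, Irf8 9.18 against 102 and Tcf4 55.1 against 157 CPM. Apoe was 18.4 against 202 CPM, beside summed macrophage lists of 266 and 552 CPM and summed T lineage lists of 9.18 and 191 CPM, whose part was not tested. Without the granule-bearing member, 130 of 5555 genes (2.34%) were higher and 308 (5.54%) lower. That cell had no Epcam UMI and supplied Elane, Prtn3 and Mpo, which otherwise ranked among the 5 lowest genes.

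**Figure D5:**
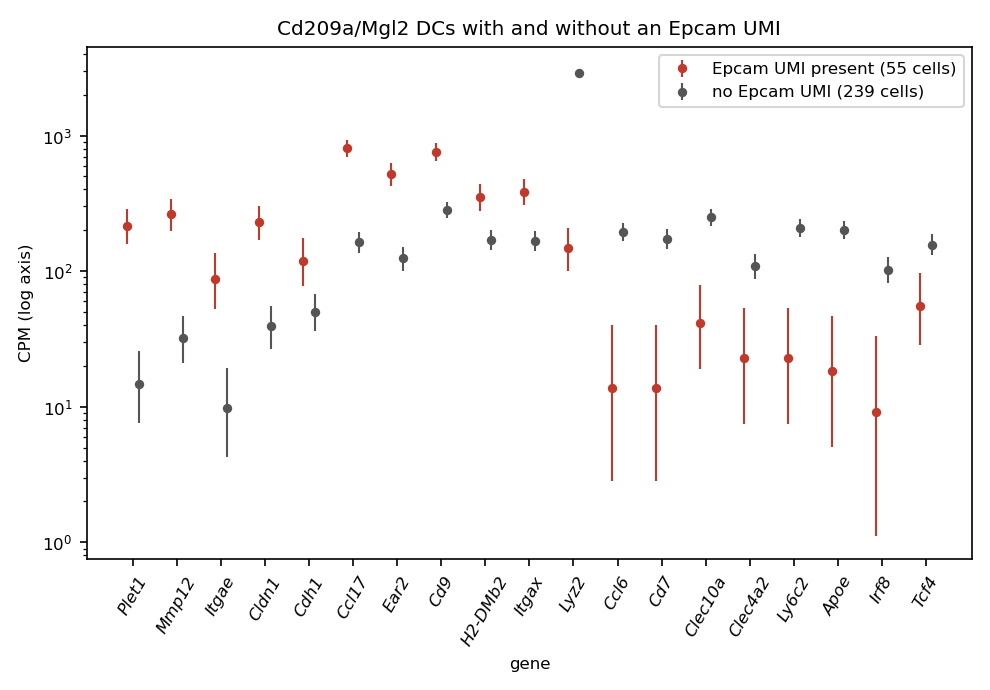
Points give CPM on a log axis for 19 genes in the 55 members with an Epcam UMI (red) and the 239 without (grey), and bars the exact 95% Poisson interval of the summed counts. Plet1, Mmp12, Itgae, Cldn1 and Ccl17 are higher in the Epcam cells, and Lyz2, Ccl6, Cd7 and Clec10a are lower.

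The same pattern was read cell by cell after thinning to 2000 UMIs, where 40 of 279 members held an Epcam UMI. Plet1 was found in 25% of those 40 and in 2.09% of the others, Cldn1 in 32.5% and 8.37%, Ccl17 in 40% and 11.3%, and Itgae in 12.5% and 1.26%. Lyz2 was found in 17.5% and 59.0%, Clec10a in 5% and 29.3%, and Cd7 in 0% and 21.8%. Dab2 was found in 10% of both sets and Flt3 in 20% and 18.0%. In the cells with Epcam transcripts the shares of Plet1, Ccl17 and Cldn1 were thus the higher ones and those of Lyz2, Clec10a and Cd7 the lower ones, while those of Dab2 and Flt3 lay close together.

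The rule admits cells by either of 2 lectins, and the 103 members with Cd209a alone differed from the 52 with Mgl2 alone (leaving out the granule-bearing member, which was among the latter). Of 3591 genes compared, 116 (3.23%) were higher with Cd209a and 235 (6.54%) lower. With that cell kept, 106 of 3632 genes (2.92%) were higher and 246 (6.77%) lower. Cd7 was 263 CPM with Cd209a and 34.5 with Mgl2, a ratio of 7.62 (3.54 to 19.5), Clec10a 238 and 54.2, and Klf2, a quiescence factor, 343 and 98.6. Gm34680 was 108 and 4.93, Rasgrp2, an exchange factor of RAP1, 127 and 9.86, and Runx2 80.4 and 4.93 CPM. Csgalnact2 and Arl2bp gave 55.7 and 52.6 CPM with Cd209a and 0 UMIs with Mgl2.

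Higher with Mgl2 alone were Plet1 (6.19 CPM with Cd209a and 143 with Mgl2, a ratio of 23.1, 5.85 to 199.9), Mmp12 (24.8 and 251), Ccl17 (121 and 429), Cd274 (6.19 and 88.8), the phagocytic receptor Axl (12.4 and 123) and the interferon receptor Ifnar1 (9.28 and 83.8). Epcam was found in 12.6% of the members with Cd209a alone, 17% of those with both and 34.6% of those with Mgl2 alone. Plet1, Mmp12 and Ccl17 were also higher in the Epcam cells. These genes were counted in few cells: of 279 members thinned to equal depth, Plet1 was found in 15, Mmp12 in 18 and Ccl17 in 43. Whether a few cells carried the ratios between the sets with Cd209a alone and Mgl2 alone was not tested. MHC class II genes did not separate the 2 sets (0 of 10 past 2-fold in either direction), with H2-Aa at 5622 and 7860.0 CPM. Lyz2 did not separate them either, at 3057 and 2727. The members with Mgl2 alone were deeper, at a median of 3777 against 3058 UMIs.

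A further split, by Cd209d, was chosen after the values were seen. The 98 members with a Cd209d UMI (median 3641.5 UMIs) and the 196 without (3186.5) differed in 71 genes higher (1.27% of 5584) and 132 lower (2.36%). Higher with Cd209d were Tcf4 (248 against 74.6 CPM, a ratio of 3.33, 2.33 to 4.80), Cd8a (74.5 against 10.4), Ccr9 (38.6 against 4.48) and Adam23 (77.2 against 28.3). Each of these 4 genes was also past 2-fold higher in the Cd209e cells than in the members. Lower with Cd209d were Ccl17 (79.97 against 416), Tgfbi, a matrix protein induced by TGF-beta (30.3 against 192), Axl (13.8 against 64.1) and 5 of 12 interferon response genes (Ifit2, Ifit3, Oasl2, Rsad2 and Ifi44), while Isg15 at 256 against 499.7 CPM did not pass 2-fold. Cd209d was found in 29.1% of the members with Epcam and 34.3% of those without.

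Along the sum of the gating lectins, members with 2, with 3 to 5 and with 6 or more UMIs (49, 112 and 133 cells) held Cd74 at 21380.1, 23220.1 and 25538 CPM and H2-Aa at 5825, 6630.1 and 7279. Clec10a was 90.5, 174 and 268 CPM, while Epcam was 169, 176 and 87.3, in 28.6%, 19.6% and 14.3% of cells. The cells just outside the rule held 63.9 CPM of Epcam in 11.5% and 265 CPM of Ccl17, and the 1841 cells with no UMI of the 3 lectins 13.1 CPM of Epcam in 1.14% and 12.6 of Ccl17. The share with Epcam was larger in the members with the fewest lectin UMIs (14 of 49 cells) than in those with the most (19 of 133). These are few cells, and the difference was not tested. Median depth was 3415, 3129.5 and 3559 UMIs in the 3 sets.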

How the data were processed

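Droplet 3′ single-cell RNA sequencing was done on 2 thymus libraries of CD64-sorted cells. The deposited values are whole-number UMI counts for each gene in each barcode, which the authors made with Cell Ranger 6.0.0 (2021) and 8.0.0 (2024) per the file headers and on the mm10 build per the submitters' processing notes; the intron setting and gene annotation are not given in the sources used here. The 2024 library is given by depth alone, because no gene list was used for it, so barcodes shared between the libraries were not counted and its cells were not analysed here. The members and gene lists were chosen with earlier results of these data known.

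Counts were read in Python 3.11.15 (pandas 2.3.3, scipy 1.17.1, numpy 2.4.6), and 38 symbols shared by 2 or more gene rows were not looked up by name. Kept cells had at least 500 UMIs, 300 genes and at most 10% mitochondrial UMIs. Raw counts were summed per gated group and scaled to CPM, with exact Poisson intervals, exact conditional binomial intervals for ratios of CPM and exact Clopper-Pearson intervals for shares. Printed ratios are of CPM with nothing added; log2 ratios and calls used 10 CPM added to each side, at least 15 UMIs and a 2-fold limit, without the 17 gating genes. With 1 of the 2 libraries analysed there was no replicate, and no test was made. Shares of cells were read after thinning to 2000 UMIs (seed 1). A UMI count limits the precision of each value: 3 counts in the members equal 2.90 CPM. Named genes were the 20 with the largest log2 ratio of at least 50 CPM in the members and the 10 lowest of at least 50 CPM in the other cells, 8 and 8 for each gated group and 5 and 5 for each split, leaving out ribosomal, mitochondrial, receptor-segment and gating genes, together with genes of the lists; the text names most of these. Scrublet in scanpy 1.11.5 (expected share 6%) marked 3 of 3188 cells (0.0941%) and so had not worked; no doublets were removed, and removing the highest scores was an alternative. The comparison was run on counts simulated without variation between cells, where 200 of 200 genes changed 4-fold among 11082 were recovered. Those 200 had at least 50 CPM and a change well past the 2-fold limit. The run checks the arithmetic and does not measure how reliable calls are for genes of few UMIs or genes carried by 1 cell. Promoter sequences are from RefSeq (GRCm38.p6) and gene positions from GENCODE M21. Figures were drawn with matplotlib 3.10.9. The Cd209d split, the removal of the granule-bearing member, the added condition on monocytes and the thinned rule were chosen after seeing the data. Other alternatives changed the rule, the cell filter, the added CPM, the count minimum and the scaling. Some genes of the lists are not reported here.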

Additional observations from a re-analysis of the deposited data

How the results depend on the processing

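No paired analysis was possible because 1 library gave all values and no group has replicates. The number of members was 176 when UMIs of at least 2 of the 3 lectin genes were required. The members' share of cells was 7.69% with a lectin sum of at least 3 and 5.52% with 2 of the 3 genes. It was 11.7% under a stricter cell filter (1000 UMIs, 500 genes, 5% mitochondrial). After thinning to 2000 UMIs it was 15.2%, but of the 1749 cells deep enough and not of all kept cells. In those 1749 cells the thinned rule found 266 members and the full counts 279, so thinning did not raise the share. With 1 CPM added in place of 10, the calls higher and lower were 255 and 2067 against other kept cells, 423 and 311 against Cd209e cells and 267 and 1389 against C1q macrophages, and 1524 genes were higher than in mature dendritic cells; the smaller addition admits genes of few counts by construction. The mean of per-cell CPM gave 120 higher and 837 lower against other kept cells, and the cause was not tested. The log2 ratio of Ccl5 against Cd209e cells turned to 0.023 without the highest doublet scores. Without the granule-bearing member, those of Prtn3 turned to 0.38 in the Epcam split and 0.15 in the Cd209d split, and that of S100a8 to 0.046 in the split by Cd209a and Mgl2. Of the list medians recomputed, 625 kept their place within the limit set for them and 23 moved. Of the log2 ratios of named genes, 470 lay within the main interval, 268 lay outside it and 4 reversed. That interval was computed with nothing added and the log2 ratio with 10 CPM added, so a main value can itself lie outside. Dropping the count minimum leaves these log2 ratios unchanged, yet 22 were counted as moved. The 268 therefore do not measure how stable the ratios were. The limits for the list medians mix the 2 scales in the same way. Of the shares of members with a UMI, 7 stayed and 11 moved when cells were thinned to 1000 UMIs or not thinned. With the highest doublet scores removed, 61.2% of calls against Cd209e cells were higher in the members, beside 51.2%. Depth limits genes of few UMIs: a Cd209e count of 0 does not show that a cell lacks the transcript.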
